A study of Mus musculus with 6 samples.

Results

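The 39 genes described here mark excitatory (glutamatergic) neurons of the hippocampus, from the factors that set up their lineage to the genes that tell one hippocampal field from another. They were selected by gene symbol from a list of identity genes, drawn up with earlier results of these data known, out of 47086 gene loci. Each of the 39 symbols had 1 locus. RNA was measured by RNA sequencing in primary hippocampal cultures, which hold neurons and glia together, prepared from newborn C57BL/6 mice and kept 14 days in vitro. There were 3 libraries of WT cultures and 3 of *Fmr1* KO cultures. *Fmr1* encodes FMRP, the RNA-binding protein lost in Fragile X syndrome. The labels name no agent for either group. The study's KO mice were males and its WT mice their littermates, born to heterozygous mothers and WT fathers. The knockout allele, and the sex and litter of the pups behind each library, were not found in the sources used here. The labels do not say that replicates came from separate cultures, so p-values measure only the spread between these libraries, which may be technical.

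In the developing forebrain, excitatory neurons arise from dorsal progenitors. Homeodomain and LIM-homeodomain factors pattern this tissue, T-box and NeuroD-family factors follow each other as cells leave division and become neurons, and zinc finger factors then fix the subtype. Mature cells load glutamate into synaptic vesicles through a vesicular transporter. The pyramidal neurons of fields CA1 and CA3 and the granule cells of the dentate gyrus are told apart by sets of surface, secreted and nuclear proteins. The comparison asked whether the levels of these genes differed between genotypes in cultured neurons.

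No member passed a test corrected over all loci, and most members lay close to equal in the 2 genotypes. Of the 39 genes, 36 reached a mean of 1 FPKM (a read density corrected for transcript length and library size) in at least 1 genotype and were tested, while *Eomes*, *Dkk2* and *Tdo2* did not reach it. Fold changes are KO minus WT on the scale of log2(FPKM + 0.1), and tests were limma with Benjamini-Hochberg adjustment over 13195 loci. The log2 change was above 0 for 17 members and below 0 for 19, between -0.55 for *Cckbr* and 0.34 for *Pou3f1*, and its median was -0.02 against 0.005 over all tested loci. It lay within 0.1 of 0 for 21 members, or 58.3%, against 57.1% of all tested loci. The members were thus about as close to equal as loci in general.

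Counts of members passing a threshold are read against the share of all tested loci. At an adjusted p below 0.05, 0 members were called by limma, where 0.265% of loci were called, 0.0909% higher and 0.174% lower in KO. At an unadjusted p below 0.05 there were 8 members, or 22.2%, against 14.8% of loci. Of these 8, *Pou3f1* and *Lmo3* were higher in KO, where the share of loci was 6.99%, and *Cckbr*, *Fibcd1*, *C1ql2*, *Dsp*, *Bok* and *C1ql3* were lower, where it was 7.77%. The 3 WT and 3 KO values did not overlap for 11 members, or 30.6%, against 21.1% of loci. Of these 11, 3 were higher in KO, where the share of loci was 10.8%, and 8 were lower, where it was 10.3%. In a comparison of 3 against 3 libraries, the smallest two-sided p that an exact permutation test of a single gene can give is 0.1.

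Correlations of log2 values between libraries of the same genotype ran from 0.97 to 0.978 and between genotypes from 0.962 to 0.977. Absolute depth is unknown, since the deposited values are FPKM. The transcript of *Fmr1* itself was at 19.0, 19.5 and 19.7 FPKM in WT replicates 1, 2 and 3 and at 23.1, 21.8 and 18.5 FPKM in KO replicates 1, 2 and 3 (log2 change 0.12, SE 0.08, adjusted p = 0.536 by limma). The RNA level of the gene therefore did not check the genotype labels, and each direction below rests on them. In bulk samples, fewer cells of a type and less RNA per cell cannot be told apart.

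**Figure D1:**
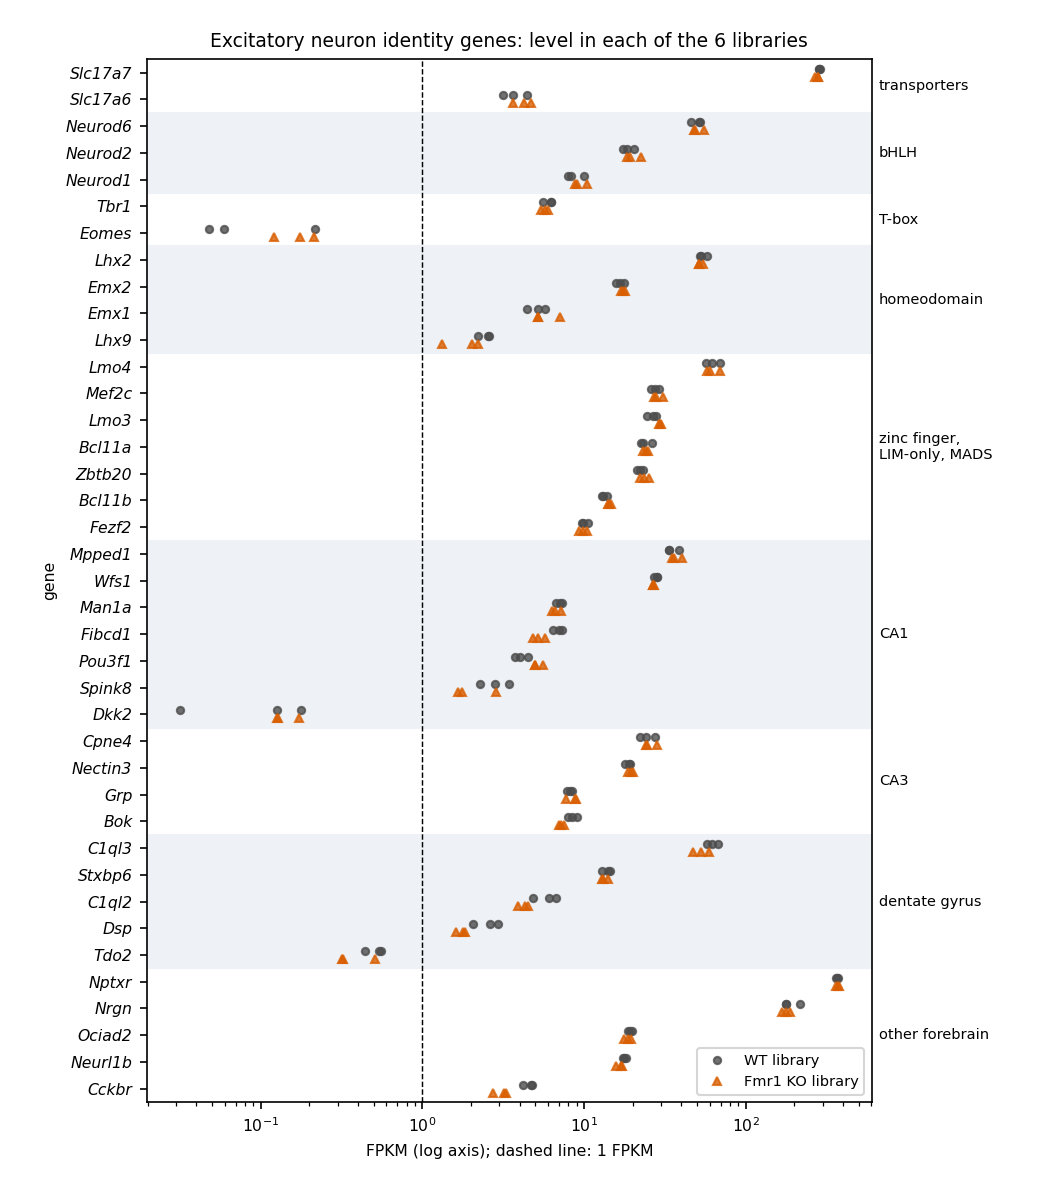
FPKM of the 39 genes on a log axis, 1 row for each gene in its role group, with circles for the 3 WT libraries and triangles for the 3 Fmr1 KO libraries. The levels run from 0.127 FPKM for Dkk2 to 368 FPKM for Nptxr as means over 6 libraries, and for most genes circles and triangles overlap.

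The vesicular glutamate transporters were first. *Slc17a7*, which encodes VGLUT1, the transporter of mature hippocampal and cortical excitatory neurons, had the second highest level of all members. It was at 285, 290 and 285 FPKM in WT replicates 1, 2 and 3 and at 280, 269 and 279 FPKM in KO. Each KO library was below each WT library, and the difference was small: means of 287 ± 2.74 and 276 ± 5.77 (SD, n = 3), log2 change -0.06 (95% interval -0.15 to 0.04, adjusted p = 0.575). *Slc17a6*, which encodes VGLUT2, the transporter used more by subcortical and immature neurons, was at 3.18, 4.45 and 3.66 FPKM in WT and at 4.71, 4.25 and 3.65 FPKM in KO. The groups overlapped (log2 change 0.16, 95% interval -0.15 to 0.48, adjusted p = 0.636). Within a library, the FPKM of *Slc17a7* was 65.2 to 89.8 times that of *Slc17a6* in WT and 59.5 to 76.4 times in KO, so VGLUT1 was the main transcript in all 6 libraries.

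The NeuroD-family factors, basic helix-loop-helix activators of the neuronal programme, all had a change above 0 and none passed either threshold. *Neurod6*, the highest of them, was at 52.3, 51.3 and 45.9 FPKM in WT and at 55.4, 48.4 and 47.9 FPKM in KO. *Neurod2*, which is needed for survival and synapse maturation of forebrain excitatory neurons, was at 20.4, 18.5 and 17.3 FPKM in WT and 22.6, 18.6 and 19.3 FPKM in KO. *Neurod1*, needed for the formation of dentate granule cells, was at 9.96, 8.003 and 8.35 FPKM in WT and 10.4, 8.76 and 9.08 FPKM in KO. In each of these genes, replicate 1 held the highest value of both genotypes. The log2 changes were 0.02 (95% interval -0.15 to 0.19), 0.10 (-0.10 to 0.30) and 0.11 (-0.12 to 0.33), in the same order.

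The T-box pair was present in the order of mature over progenitor. *Tbr1*, a factor of postmitotic excitatory neurons, was at 6.26, 6.24 and 5.56 FPKM in WT and at 5.97, 5.41 and 5.76 FPKM in KO (log2 change -0.07, 95% interval -0.25 to 0.11, adjusted p = 0.718). *Eomes*, or Tbr2, the factor of intermediate progenitors that precedes it, was at 0.0482, 0.0593 and 0.218 FPKM in WT and at 0.122, 0.214 and 0.175 FPKM in KO. It was near the lower end of the members in every library and its groups overlapped. The level of *Tbr1* was above that of *Eomes* in all 6 libraries, by more than the spread within either gene.

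Among the homeodomain factors, the level order was *Lhx2*, *Emx2*, *Emx1* and *Lhx9*. *Lhx2*, a selector of cortical and hippocampal fate that astrocytes also express, was at 57.9, 52.5 and 52.9 FPKM in WT and 54.7, 51.6 and 51.2 FPKM in KO, with a log2 change of -0.05 (95% interval -0.18 to 0.07). *Emx2*, needed for growth of the hippocampal primordium and also present in astrocytes, was at 16.7, 15.8 and 17.7 FPKM in WT and 17.0, 17.4 and 17.9 FPKM in KO. The groups of both genes overlapped.

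*Emx1*, a marker of the dorsal telencephalic lineage, was at 5.71, 4.46 and 5.18 FPKM in WT and at 5.19, 5.20 and 7.09 FPKM in KO. KO replicate 3 alone lay above the WT range (log2 change 0.18, 95% interval -0.14 to 0.49, adjusted p = 0.605). *Lhx9*, a LIM-homeodomain relative of *Lhx2* found in several brain regions, was at 2.57, 2.56 and 2.20 FPKM in WT and at 2.20, 1.32 and 2.04 FPKM in KO. Its values were the lowest of the group, with KO replicate 2 standing below the other libraries, and its unadjusted p was 0.0589 (log2 change -0.41, 95% interval -0.84 to 0.02, adjusted p = 0.362).

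The zinc finger, LIM-only and MADS-box factors were all above 9 FPKM, and 5 of 7 had a change above 0. *Lmo3*, a LIM-only cofactor that joins transcription factors and does not itself bind DNA (chr6:138362918-138599314, build GRCm38), was at 26.7, 28.0 and 24.6 FPKM in WT and at 30.1, 29.4 and 29.2 FPKM in KO. Every KO library was above every WT library. The means were 26.4 ± 1.72 and 29.6 ± 0.497 FPKM (SD, n = 3), and the log2 change was 0.16 (SE 0.06, 95% interval 0.03 to 0.30, unadjusted p = 0.0208, adjusted p = 0.255 by limma). The unadjusted p was not below 0.05 without KO replicate 1 or without WT replicate 3. Its relative *Lmo4*, the highest gene of the group, was at 69.1, 62.2 and 56.8 FPKM in WT and 69.4, 60.0 and 57.8 FPKM in KO, with a log2 change of -0.01 (95% interval -0.21 to 0.19).

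*Bcl11b*, or Ctip2, a factor of CA1 and dentate neurons that some interneurons also express, was at 13.0, 13.9 and 13.1 FPKM in WT and at 14.3, 14.0 and 14.7 FPKM in KO. The groups did not overlap, and the change of 0.11 (95% interval -0.02 to 0.23) did not pass the unadjusted threshold (adjusted p = 0.413). *Zbtb20*, which specifies hippocampal pyramidal neurons and is also found in astrocytes, was at 21.3, 23.1 and 22.2 FPKM in WT and 22.3, 23.6 and 25.2 FPKM in KO. The coordinates of *Zbtb20* are shared by 5 other loci, whose mean levels summed to 114.8 FPKM against 22.9 FPKM for *Zbtb20*. Its log2 change was 0.09 and its groups overlapped (adjusted p = 0.523).

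*Bcl11a*, or Ctip1, a partner of *Bcl11b* in cortical development, was at 26.2, 23.2 and 22.4 FPKM in WT and 25.0, 24.3 and 23.2 FPKM in KO. *Mef2c*, an activity-regulated factor that limits synapse number and is also made by microglia and endothelium, was at 27.6, 29.1 and 25.8 FPKM in WT and 30.8, 27.0 and 27.8 FPKM in KO. *Fezf2*, the selector of subcerebral projection neurons, was the lowest of the group at 10.6, 9.79 and 9.89 FPKM in WT and 10.4, 9.82 and 9.26 FPKM in KO. The groups of each of the 3 overlapped, and their log2 changes were 0.01, 0.05 and -0.04.

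Taking the transcription factors and cofactors as 1 class, 15 were tested, 10 with a change above 0 and 5 below, with a median of 0.05. Only *Lmo3* of the 15 had an unadjusted p below 0.05. Among the 21 other tested members, 7 had a change above 0 and 14 below, with a median of -0.06, and 7 had an unadjusted p below 0.05, 6 of them lower in KO. The share of all loci at this threshold was 14.8%, as given above. *Pou3f1* is a POU-domain transcription factor but was listed with the CA1 genes and is counted in the second class. The difference between the classes was not tested.

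**Figure D2:**
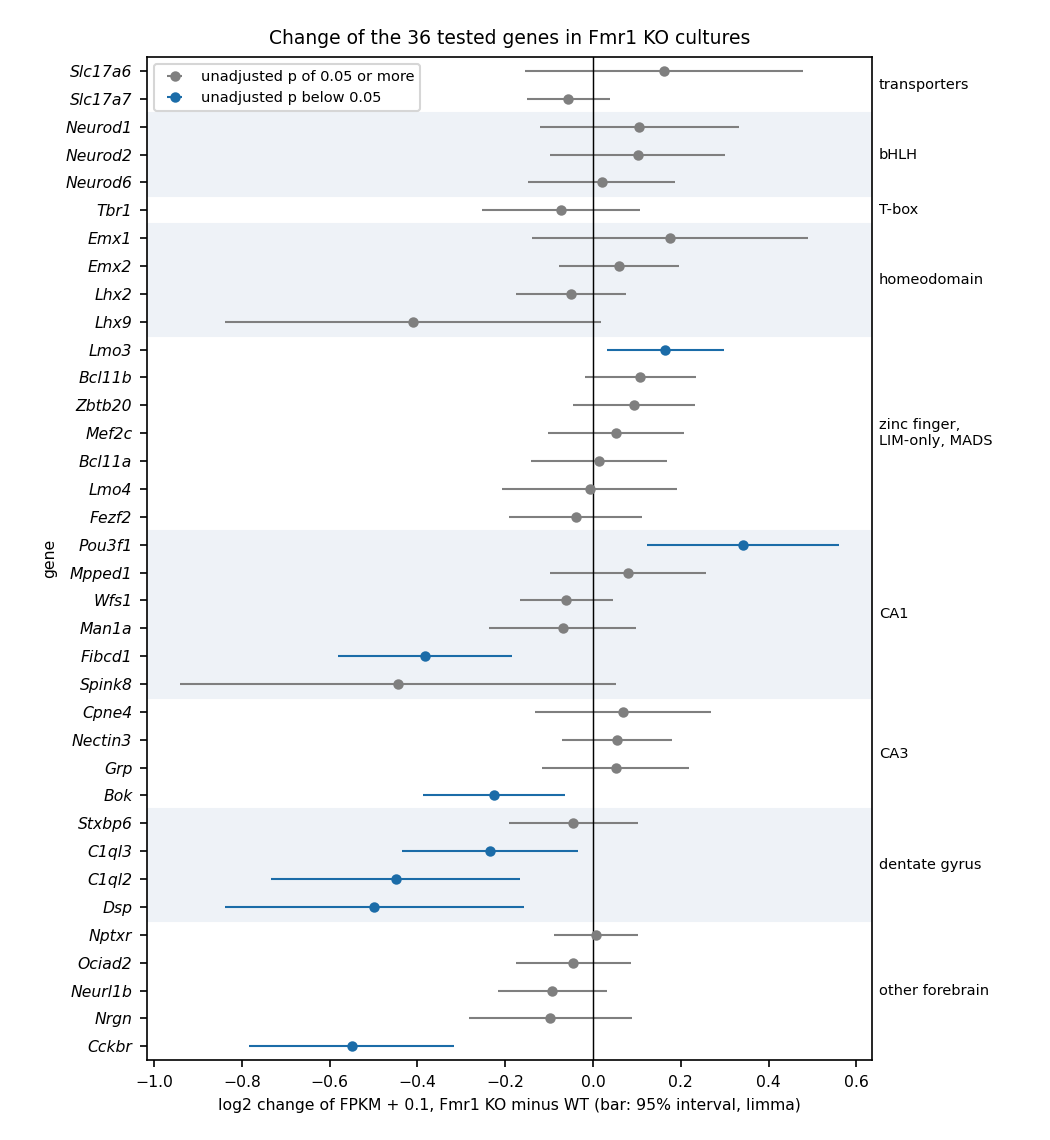
Log2 change of FPKM + 0.1, Fmr1 KO minus WT, for the 36 tested genes in their role groups, with points for the limma estimate, bars for the 95% interval, and blue for an unadjusted p below 0.05. The 4 tested dentate gyrus genes lie below 0, and Cckbr is the farthest from 0 at -0.55.

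Of the 6 tested CA1 genes 2 had a log2 change above 0 and 4 below, 0 passed the corrected test, and their summed level overlapped between genotypes at 82.0 to 87.7 FPKM in WT and 81.9 to 86.0 FPKM in KO. *Pou3f1*, a POU-domain factor of CA1 pyramidal cells that some glial lineages also use (chr4:124657646-124660655), was at 4.51, 4.04 and 3.72 FPKM in WT and at 5.62, 4.98 and 5.02 FPKM in KO. All KO libraries were above all WT libraries. The means were 4.09 ± 0.397 and 5.20 ± 0.361 FPKM (SD, n = 3), with a log2 change of 0.34 (SE 0.10, 95% interval 0.12 to 0.56, unadjusted p = 0.00651, adjusted p = 0.173 by limma). It was the member with the largest positive change.

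*Fibcd1*, a membrane receptor that binds acetylated sugars of the extracellular matrix (chr2:31813290-31846647), went the other way. It was at 6.98, 7.32 and 6.41 FPKM in WT and at 4.85, 5.22 and 5.75 FPKM in KO. Every KO library was below every WT library, with means of 6.91 ± 0.459 and 5.27 ± 0.453 FPKM (SD, n = 3) and a log2 change of -0.38 (SE 0.09, 95% interval -0.58 to -0.19, unadjusted p = 0.00189, adjusted p = 0.114 by limma). The lowest WT value, 6.41, stood above the highest KO value, 5.75.

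*Wfs1*, which encodes the endoplasmic reticulum protein wolframin and outlines dorsal CA1, was at 27.2, 28.4 and 28.1 FPKM in WT and 26.6, 26.6 and 27.1 FPKM in KO. The KO values were lower with no overlap, and the change was small at -0.06 (95% interval -0.17 to 0.04, adjusted p = 0.589). *Mpped1*, a gene with a metallophosphoesterase domain and the highest CA1 gene here, was at 33.5, 38.9 and 33.4 FPKM in WT and 40.5, 36.1 and 35.1 FPKM in KO. *Spink8*, a predicted serine peptidase inhibitor, was at 3.43, 2.28 and 2.84 FPKM in WT and 1.76, 1.68 and 2.86 FPKM in KO. KO replicates 1 and 2 of *Spink8* lay below the WT range and replicate 3 lay within it (log2 change -0.44, 95% interval -0.94 to 0.05, adjusted p = 0.389).

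*Man1a*, a Golgi mannosidase of glycoprotein trimming, was at 7.14, 6.70 and 7.34 FPKM in WT and 6.61, 7.19 and 6.38 FPKM in KO, with overlap and a log2 change of -0.07. *Dkk2*, a secreted modulator of Wnt signalling, was at 0.0317, 0.127 and 0.177 FPKM in WT and 0.127, 0.173 and 0.128 FPKM in KO, the lowest mean of all members. Its groups overlapped at a level too low for the test.

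The CA3 genes stayed close to equal except for *Bok*, with summed levels of 57.6 to 62.6 FPKM in WT and 59.1 to 64.5 FPKM in KO. *Bok*, a member of the BCL2 family of cell death regulators (chr1:93685575-93695770), was at 9.11, 7.99 and 8.44 FPKM in WT and at 7.05, 7.18 and 7.55 FPKM in KO. The groups did not overlap, with means of 8.51 ± 0.565 and 7.26 ± 0.256 FPKM (SD, n = 3) and a log2 change of -0.23 (SE 0.07, 95% interval -0.39 to -0.06, unadjusted p = 0.0119, adjusted p = 0.213 by limma).

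*Cpne4*, a copine that binds membranes in the presence of calcium, was at 27.3, 24.1 and 22.3 FPKM in WT and 28.5, 24.5 and 24.3 FPKM in KO. *Nectin3*, an adhesion protein of synapses on CA3 dendrites, was at 17.9, 19.4 and 19.0 FPKM in WT and 20.1, 18.8 and 19.5 FPKM in KO. *Grp*, the precursor of gastrin-releasing peptide, was at 8.25, 8.48 and 7.85 FPKM in WT and 8.88, 8.86 and 7.78 FPKM in KO. All 3 overlapped between genotypes, with log2 changes of 0.07, 0.06 and 0.05.

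The dentate gyrus genes had the lowest median change of the role groups with more than 1 tested gene, -0.34, and the 4 tested genes were all below 0. For 3 of the 4 the unadjusted p was below 0.05, and for 0 of the 4 was the adjusted p below 0.05, where 7.77% of all tested loci were lower in KO at the unadjusted threshold and 0.174% at the adjusted one. *Dsp*, which encodes the desmosomal protein desmoplakin and marks granule cells in the hippocampus (chr13:38151082-38198577), was at 2.61, 2.96 and 2.07 FPKM in WT and at 1.63, 1.85 and 1.79 FPKM in KO. Every KO library was below every WT library. The means were 2.54 ± 0.449 and 1.75 ± 0.114 FPKM (SD, n = 3), and the log2 change was -0.50 (SE 0.15, 95% interval -0.84 to -0.16, unadjusted p = 0.00932, adjusted p = 0.200 by limma).

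*C1ql2* and *C1ql3* encode secreted C1q-like proteins that organise synapses, among them those of granule cell mossy fibres. *C1ql2* (chr1:120340582-120343174) was at 6.73, 6.07 and 4.81 FPKM in WT and at 4.31, 3.89 and 4.52 FPKM in KO. The groups did not overlap, WT replicate 3 being the nearest to the KO values, and the means were 5.87 ± 0.975 and 4.24 ± 0.320 FPKM (SD, n = 3). The log2 change was -0.45 (SE 0.12, 95% interval -0.73 to -0.17, unadjusted p = 0.00605, adjusted p = 0.170 by limma).

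*C1ql3* (chr2:12924034-13010864) was at 67.9, 62.3 and 58.0 FPKM in WT and at 59.7, 53.0 and 47.5 FPKM in KO. KO replicate 1 was above WT replicate 3, so the groups overlapped. The log2 change was -0.23 (SE 0.09, 95% interval -0.44 to -0.03, unadjusted p = 0.0271, adjusted p = 0.274 by limma), and permuting the 6 values in every possible way gave an exact two-sided p of 0.2. The unadjusted p was not below 0.05 without the mean-variance trend, or without KO replicate 2, KO replicate 3, WT replicate 1 or WT replicate 2. The coordinates of this locus also cover *Pter* on the other strand. The FPKM of *C1ql3* was 10.1 to 12.05 times that of *C1ql2* in WT and 10.5 to 13.9 times in KO, so *C1ql3* was the more abundant transcript in each library.

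*Stxbp6*, or amisyn, a SNARE-binding protein of vesicle fusion, was at 14.4, 14.1 and 13.0 FPKM in WT and 14.1, 12.9 and 13.1 FPKM in KO (log2 change -0.04, 95% interval -0.19 to 0.10). *Tdo2*, the tryptophan dioxygenase of the kynurenine pathway, which marks mature granule cells in the brain, was at 0.558, 0.537 and 0.444 FPKM in WT and 0.319, 0.507 and 0.322 FPKM in KO, below the minimum for testing. Both overlapped between genotypes. The summed level of the dentate genes, carried mainly by *C1ql3*, was 78.3 to 92.2 FPKM in WT and 67.3 to 80.1 FPKM in KO, and these ranges overlapped.

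Of the other forebrain genes, *Cckbr* had the smallest p of all members. It encodes the cholecystokinin B receptor, a G protein-coupled receptor for the peptide that many hippocampal interneurons release (chr7:105425559-105436339). The values were 4.69, 4.77 and 4.20 FPKM in WT and 3.30, 3.21 and 2.74 FPKM in KO. All 3 KO libraries were below all 3 WT libraries, with means of 4.55 ± 0.308 and 3.08 ± 0.301 FPKM (SD, n = 3). The log2 change was -0.55 (SE 0.10, 95% interval -0.78 to -0.32, unadjusted p = 0.000512, adjusted p = 0.0753 by limma). Over the 13 alternative settings in which *Cckbr* was tested, which leave out the minimum of 5 FPKM, its adjusted p ran from 0.0502 to 0.233.

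*Nptxr*, the neuronal pentraxin receptor, which gathers AMPA-type glutamate receptors at synapses, had the highest level of all members at 373, 367 and 361 FPKM in WT and 361, 371 and 376 FPKM in KO. Its row joins *Nptxr* with the neighbouring *Npcd* and *Cbx6* in 1 locus, so the level is that of the joined locus (log2 change 0.01, 95% interval -0.09 to 0.10). *Nrgn*, or neurogranin, a calmodulin-binding protein of dendritic spines, was at 216, 177 and 178 FPKM in WT and 188, 167 and 177 FPKM in KO, with WT replicate 1 above the other libraries. *Neurl1b*, a ubiquitin ligase of the Neuralized family, was at 17.6, 18.1 and 17.4 FPKM in WT and 15.8, 16.8 and 17.2 FPKM in KO, lower without overlap (log2 change -0.09, 95% interval -0.22 to 0.03, adjusted p = 0.471). *Ociad2*, a mitochondrial and endosomal protein, was at 19.8, 19.3 and 18.8 FPKM in WT and 19.7, 18.8 and 17.7 FPKM in KO, with overlap and a log2 change of -0.05.

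**Figure D3:**
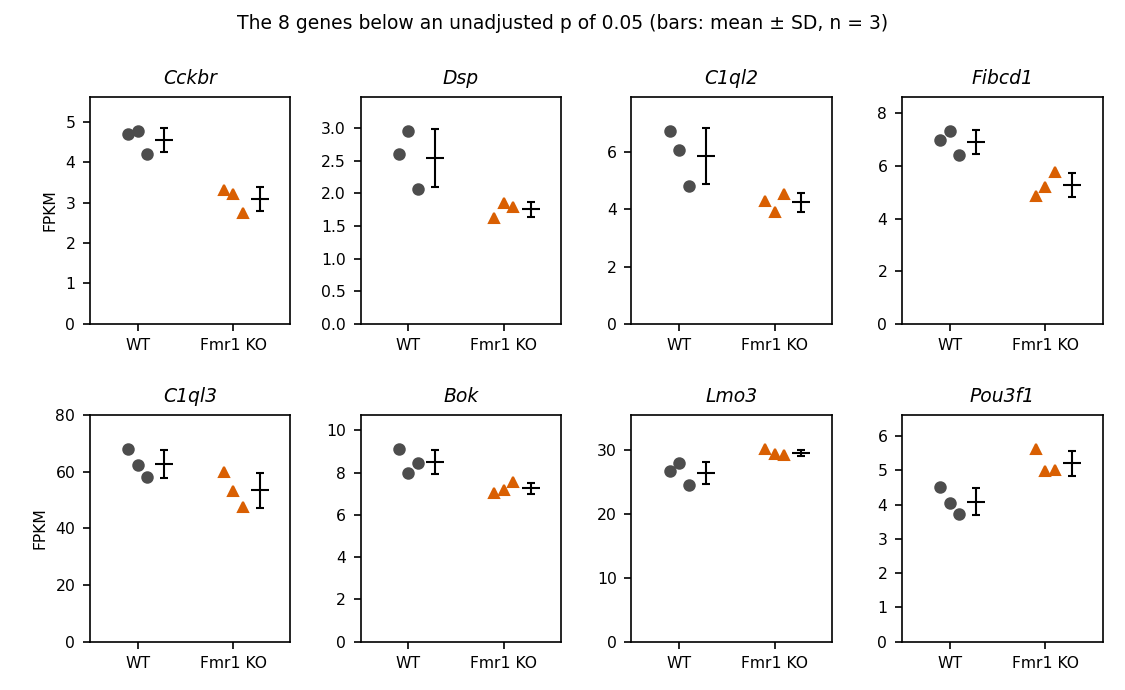
FPKM in each of the 6 libraries for the 8 genes with an unadjusted p below 0.05, 1 panel for each gene with its own axis from 0, points for libraries, and bars for the mean and SD (n = 3). Pou3f1 and Lmo3 are higher in Fmr1 KO, the other 6 are lower, and only the groups of C1ql3 overlap.

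Leaving out *Lmo3* and *C1ql3*, the other 6 of the 8 genes had an unadjusted p below 0.05 in every alternative in which they were tested.

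The start regions of 5 members that were lower in KO are shown, the dentate trio and the pair with the smallest p. The composition of these windows can then be read beside the values. Each is 250 bases before to 50 bases after the RefSeq start on GRCm38.p6, 5′ to 3′ on the strand of the gene, with the E-box CANNTG, the core letters bound by basic helix-loop-helix factors such as the NeuroD family, in capitals where it occurs. They are *Dsp* at chr13:38151044-38151343 on the plus strand, *C1ql2* at chr1:120340332-120340631 on the plus strand, *C1ql3* at chr2:13010815-13011114 on the minus strand, *Cckbr* at chr7:105425481-105425780 on the plus strand and *Fibcd1* at chr2:31845956-31846255 on the minus strand.
Dsp: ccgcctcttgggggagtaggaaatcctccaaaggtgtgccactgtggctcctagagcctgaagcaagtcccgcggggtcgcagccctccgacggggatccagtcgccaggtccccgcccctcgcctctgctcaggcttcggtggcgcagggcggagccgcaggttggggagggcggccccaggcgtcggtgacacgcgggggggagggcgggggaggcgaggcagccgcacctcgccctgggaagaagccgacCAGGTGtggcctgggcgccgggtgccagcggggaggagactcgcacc
C1ql2: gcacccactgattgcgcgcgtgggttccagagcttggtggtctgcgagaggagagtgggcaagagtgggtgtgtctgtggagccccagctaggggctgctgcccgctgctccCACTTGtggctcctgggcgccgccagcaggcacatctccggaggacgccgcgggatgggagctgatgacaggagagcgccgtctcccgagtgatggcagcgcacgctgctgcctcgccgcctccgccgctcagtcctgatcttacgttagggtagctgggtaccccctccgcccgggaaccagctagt
C1ql3: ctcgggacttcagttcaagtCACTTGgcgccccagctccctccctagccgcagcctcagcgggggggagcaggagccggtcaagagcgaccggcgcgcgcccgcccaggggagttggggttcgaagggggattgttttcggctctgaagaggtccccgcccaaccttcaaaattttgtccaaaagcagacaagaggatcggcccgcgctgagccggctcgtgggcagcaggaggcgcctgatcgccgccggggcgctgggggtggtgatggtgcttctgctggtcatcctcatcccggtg
Cckbr: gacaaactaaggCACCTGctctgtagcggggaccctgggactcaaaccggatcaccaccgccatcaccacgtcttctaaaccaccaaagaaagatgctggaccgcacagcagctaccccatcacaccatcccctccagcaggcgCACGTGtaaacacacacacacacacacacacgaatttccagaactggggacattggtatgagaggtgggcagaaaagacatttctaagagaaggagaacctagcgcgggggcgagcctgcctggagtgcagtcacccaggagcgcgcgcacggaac
Fibcd1: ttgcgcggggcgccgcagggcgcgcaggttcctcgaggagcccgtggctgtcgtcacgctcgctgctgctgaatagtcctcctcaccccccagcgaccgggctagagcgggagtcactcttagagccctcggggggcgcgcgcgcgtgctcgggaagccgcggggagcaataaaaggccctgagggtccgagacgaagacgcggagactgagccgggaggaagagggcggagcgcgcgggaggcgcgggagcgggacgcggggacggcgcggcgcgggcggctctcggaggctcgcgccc
The 5 windows differed in composition. In another annotation, GENCODE, the *C1ql3* gene spans chr2:13003457-13011806. Its window here thus lies inside that gene and not at its upstream end, so its counts may not describe a promoter. The E-box count was 1 in *Dsp*, *C1ql2* and *C1ql3*, 2 in *Cckbr* and 0 in *Fibcd1*. The GC box GGGCGG, the core letters bound by Sp-family factors, was found 4 times in *Dsp*, 2 times in *C1ql3* and *Fibcd1*, 1 time in *C1ql2* and 0 times in *Cckbr*. GC content was 57.0% in *Cckbr*, the lowest, and 74.3% in *Fibcd1*, which held 46 CpG pairs against 15 in *Cckbr*.

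RefSeq start regions were matched for 35 of the 39 members; *Grp*, *Nptxr*, *Pou3f1* and *Spink8* had none in the table. Both strands were searched, and the background is the 17492 protein-coding promoters of the same length. CANNTG, which includes CAGATG and CAGCTG, was in 62.9% of the members and 68.8% of all promoters. CAGATG was in 11.4% and 14.8%, and CAGCTG was in 0 members and 15.1% of all promoters. GGGCGG was in 68.6% of the members and 46.3% of all promoters. TATAAA was in 14.3% and 13.3%, and the cAMP response element TGACGTCA was in 0 members and 2.34% of all promoters. The median GC content was 61.3% in the members and 56.3% in all, with medians of 17 and 13 CpG pairs. A match is a description of letters in this window, and no factor was measured.

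A wider list of 28 other genes of hippocampal excitatory neurons, of which 24 were tested, had a median log2 change of -0.05, with 10 above 0 and 14 below. For 0 of the 24 was the adjusted p below 0.05 by limma, and for 8, or 33.3%, the unadjusted p was below 0.05, against 14.8% of all loci. Of these 8, 2 were higher in KO (*Cux2* and *Camk2a*), where the share of all loci was 6.99%. The 6 lower in KO were *Amigo2*, *Prox1*, *Ptpn5*, *Dkk3*, *Coch* and *Tyro3*, where the share was 7.77%. The largest positive change was that of *Cux2*, a homeodomain factor of upper-layer cortical neurons, at 0.37 (adjusted p = 0.117). The largest negative change was that of *Trpc6*, a cation channel, at -0.43 (unadjusted p = 0.0628, adjusted p = 0.369 by limma). *Trpc6* was low, with a mean of 1.52 FPKM over the libraries, and is not among the 8.

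Markers of other cell types in the cultures are given beside these results, and their part in the results was not tested. Genes of neurons in general had a median log2 change of -0.01 (10 of 10 tested, summed FPKM 1834 to 1936 in WT and 1824 to 1983 in KO), from *Nefl* at -0.24 to *Map2* at 0.26. Inhibitory interneuron genes had a median of 0.11 (13 of 14 tested, 377 to 395 and 355 to 402 FPKM), from *Vip* at -0.40 to *Dlx2* at 0.57. Neither sum separated the genotypes. The unadjusted p by limma was below 0.05 for 6 of the 13 interneuron genes (46.2%), 4 higher and 2 lower in KO. It was below 0.05 for 3 of the 10 neuron genes (30.0%), 1 higher and 2 lower. The share of all loci was 14.8%, with 6.99% higher and 7.77% lower. In both lists 0 genes had an adjusted p below 0.05.

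Among glial lists, astrocyte genes had a median of -0.05 (10 of 10 tested, 1878 to 2198 FPKM in WT and 1923 to 2117 FPKM in KO), from *S100b* at -0.36 to *Gfap* at 0.14. Oligodendrocyte lineage genes had a median of 0.06 (7 of 8 tested, 346 to 402 and 396 to 439 FPKM), with *Pdgfra* the highest at 0.29. The 10 microglial genes summed to 6.15 to 8.41 FPKM in WT and 1.49 to 2.59 FPKM in KO, with *Aif1* and *Tmem119* listed at 0. The 4 of them that were tested reached 1 FPKM only in WT, so the filter kept them through the group where they were high and their direction is not counted. Among them *Lyz2* was at 1.66, 1.29 and 2.31 FPKM in WT and 0.0614, 0.314 and 0.124 FPKM in KO. For the same reason no p-value is given for it.

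Genes of dividing cells were all above 0 (7 of 7 tested, median 0.30, sums of 40.0 to 46.8 FPKM in WT and 50.4 to 55.4 FPKM in KO), from *Ccnb1* at 0.12 to *Bub1* at 0.43. Endothelial, mural and fibroblast genes had a median of -0.05 (5 of 11 tested, 49.7 to 54.3 and 40.5 to 48.3 FPKM), from *Dcn* at -0.27 to *Rgs5* at 0.06, with *Cldn5* listed at 0. These sums were carried mainly by *Dcn*, at means of 42.0 FPKM in WT and 34.8 FPKM in KO. The 6 choroid plexus genes summed to 0.865 to 1.58 FPKM in WT and 53.6 to 63.5 FPKM in KO, with *Kl* listed at 0, and the 2 that were tested reached a mean of 1 FPKM only in KO. *Ttr*, which carried nearly all of the sum in KO, was listed at 0 in WT replicates 1 and 2 and was at 0.0910 FPKM in WT replicate 3. In KO it was at 56.6, 52.0 and 60.7 FPKM. No p-value is given for *Ttr*, since the filter kept it through KO alone. Among thalamic genes *Rora* was at 0.18 and *Tcf7l2* at -0.12, and of the Cajal-Retzius genes only *Calb2* was tested, at 0.10. *Calb2* had a mean of 86.5 FPKM, and the 4 untested genes had means from 0.0611 FPKM (*Lhx5*) to 0.482 FPKM (*Trp73*). The change of *Calb2* thus describes 1 gene and not the list.

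**Figure D4:**
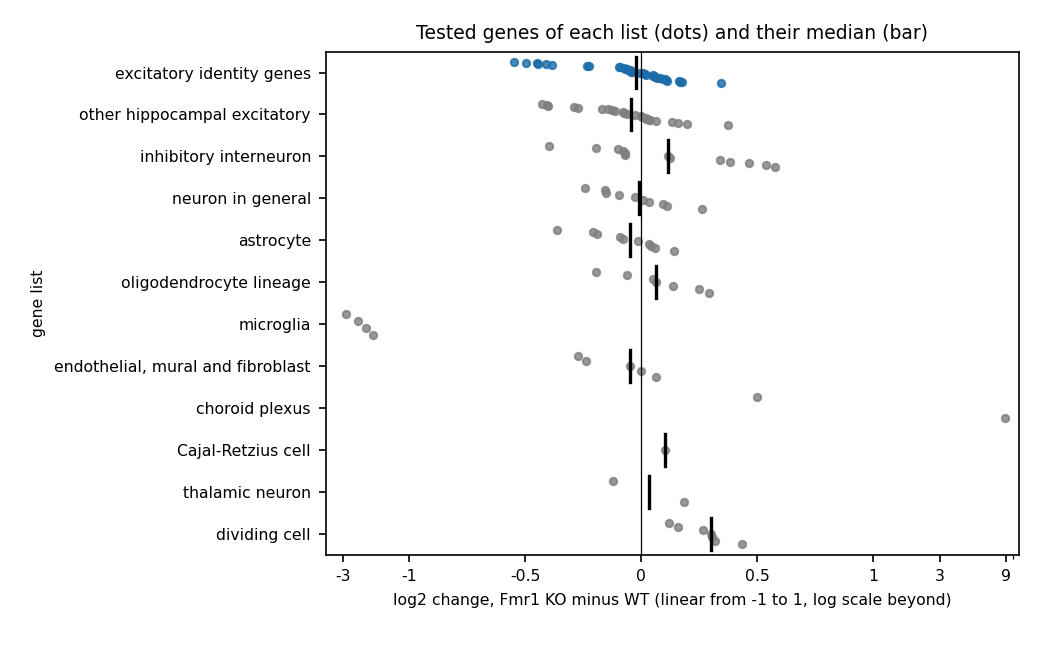
Log2 change, Fmr1 KO minus WT, of each tested gene (dots) and the median (bars) for the 39 identity genes in blue and for 11 other gene lists in grey, on an axis that is linear from -1 to 1 and logarithmic beyond. No median is drawn for the microglial and choroid plexus lists, whose tested genes passed the FPKM minimum through 1 genotype. The identity genes centre on -0.02 and dividing cell genes lie above 0.

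Replicate libraries also differed among themselves in the members as a class. Against the mean of their genotype, the median deviation of the 36 members was 0.05, 0.02 and -0.07 on the log2 scale in WT replicates 1, 2 and 3, and 0.06, -0.03 and -0.02 in KO replicates 1, 2 and 3. Replicate 1 held the highest value for 20 of 36 members in WT, where it did so for 39.2% of all loci, and for 23 of 36 in KO, where it did so for 37.4%. In both genotypes at once this was so for 15 of 36 members and for 19.4% of all loci. Astrocyte genes ran the other way, with median deviations of -0.06, -0.04 and 0.12 in WT and -0.06, 0.00 and 0.05 in KO. The part of these spreads in the differences between genotypes was not tested.

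**Figure D5:**
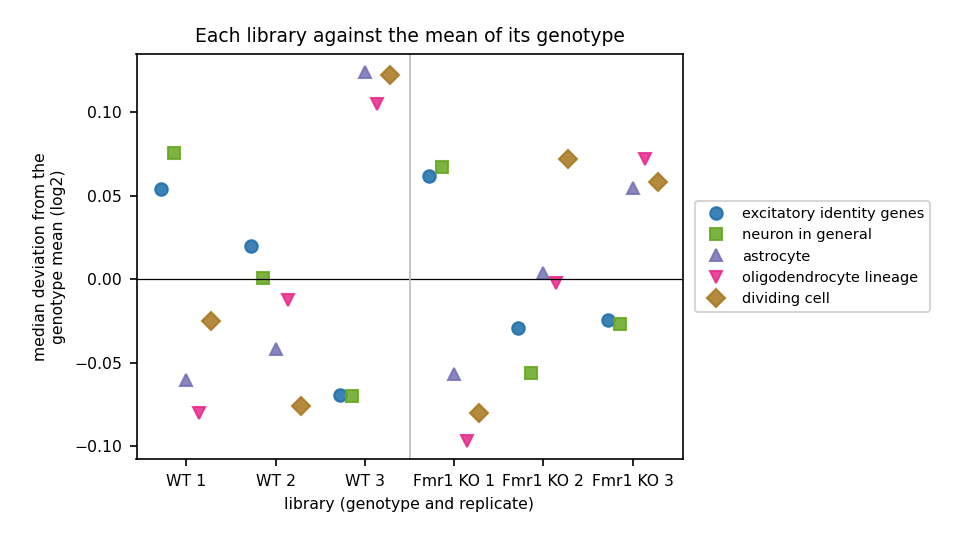
Median deviation from the mean of the same genotype (log2) for 5 gene lists in each of the 6 libraries, with blue circles for the identity genes. Replicate 1 of each genotype is highest for the identity genes (0.05 and 0.06) and neuron genes and lowest for oligodendrocyte lineage genes.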

How the data were processed

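RNA was measured in 3 WT and 3 *Fmr1* KO libraries, grouped by the genotype in the labels. The deposited values are FPKM per gene locus in each library, made by the authors with Fastx Clipper and sickle trimming, TopHat2 alignment to GRCm38, Cufflinks and Cuffdiff; the versions, annotation, strandedness and scaling were not given in the sources used here. Without strand, reads of overlapping antisense genes cannot be told apart, and 11 of the 39 member loci overlap a gene on the other strand. The authors' group means, fold changes, p and q columns were not used. FPKM keeps no read number, so depth is unknown and precision comes from the 3 libraries of a group. Starts in the file count from 0 and are given here from 1.

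Values were tested as log2(FPKM + 0.1) by limma 3.58.1 in R 4.3.3 with a mean-variance trend, over loci with a mean of at least 1 FPKM in either genotype, with Benjamini-Hochberg adjustment over all 13195 and a threshold of 0.05. The pseudocount understates changes of low genes. The script was checked on simulated data. Members and lists were chosen with earlier results of these data known. Values in every library were given for members at an unadjusted p below 0.05, members whose groups do not overlap, the highest and lowest of each role group and those that define a field or lineage, and for other lists the log2 change of the gene that changed most in each direction (not for lists whose tested genes passed the minimum through 1 genotype) and the values of any called gene. One gene that this rule names is not reported here. The 14 alternatives were other pseudocounts (1 and 0.01), no FPKM minimum or a minimum of 5, median centring, no trend, removal of a trend with gene span, a replicate block, and each library left out.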

Additional observations from a re-analysis of the deposited data

How the results depend on the processing

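Of the 39 genes, 0 had an adjusted p below 0.05 in the main analysis and in each of the 14 alternatives, and between 6 and 9 had an unadjusted p below 0.05. The median log2 change of the members ran from -0.06 to 0.0075, above 0 with a minimum of 5 FPKM (0.0071) and without WT replicate 1 (0.0075). Over all loci the counts moved more. The loci called higher in KO numbered 12 in the main analysis, 6 with no FPKM minimum, 20 with a minimum of 5, 19 with the gene span trend removed and 7 with no mean-variance trend, and the loci called lower numbered 23, then 9 with no minimum and 14 with no trend. Leaving out 1 library at a time gave 5 to 7 loci higher and 8 to 13 lower. The cause of these movements was not tested, and a fit without 1 library also has fewer libraries.

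Replicate numbers were not shown to pair the libraries. Deviations of WT and KO libraries with the same number correlated at 0.243, 0.0577 and 0.0801. Those with different numbers correlated at -0.152 to 0.0781. WT replicate 2 correlated best with KO replicate 3, by a small margin (0.0658 against 0.0577). With the replicate block 29 loci were higher and 36 lower, and 9 members had an unadjusted p below 0.05.

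Among the other hippocampal genes, the count at an unadjusted p below 0.05 ran from 5, without WT replicate 1, to 8 when 1 library was left out. Changes near 0 turned direction. With the gene span trend removed, the log2 change was -0.0030 for *Bcl11a*, 0.0047 for *Lmo4* and -0.0041 for *Nptxr*. With 1 library left out it ran from -0.047 to 0.058 for *Neurod6*, -0.031 to 0.081 for *Bcl11a*, -0.080 to 0.0017 for *Fezf2*, -0.086 to 0.065 for *Lmo4*, -0.0051 to 0.093 for *Mef2c*, -0.0047 to 0.15 for *Cpne4*, -0.0055 to 0.023 for *Nptxr*, -0.020 to 0.13 for *Rgs5* and -0.017 to 0.28 for *Ccnb1*. With the replicate block the adjusted p by limma was 0.0496 for *Cux2* and *Pdgfra* and 0.0475 for *Map2*. With a minimum of 5 FPKM it was 0.0439 for *Map2*. Depth is unknown, so no limit of detection was set for *Eomes*, *Dkk2* or *Tdo2*.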
